A study of Mus musculus with 6 samples.

Results

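The genes described here encode the standing parts of the proteasome: the subunits of its core and regulatory particles, the chaperones that put it together, the caps that can replace the regulatory particle, and an inhibitor. They were taken by symbol, as every gene named Psma, Psmb, Psmc, Psmd, Psme, Psmf or Psmg followed by a digit, without the inducible subunits Psmb8, Psmb9 and Psmb10. The rule gave 46 of the 23284 genes in the files. Of these, 44 averaged 1 FPKM or more across the 6 libraries and were tested among 11703 genes. The RNA was that of C1498, a murine line of acute myeloid leukemia (AML), grown in female C57BL/6 J mice, for which the methods give an age of 8–10 weeks unless stated otherwise. The cells came from 1 clone that carries a retroviral green fluorescent protein, and they were sorted from pooled femur, tibia and pelvis marrow as GFP+ CD49b+ cells 21 days after injection. The cytarabine group was 3 mice given cytarabine, a nucleoside analog that blocks DNA synthesis, and the control group was 3 mice that the labels describe both as PBS-treated and as untreated. Each mouse gave 1 library, named cytarabine 1 to 3 and control 1 to 3, and dose and schedule were not given for the sequenced mice in particular.

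The proteasome is the protease complex that destroys proteins tagged with ubiquitin. Its barrel-shaped 20S core has outer rings of alpha subunits, which form the gate, and inner rings of beta subunits, some of which cut the substrate. The 19S regulatory particle sits on the gate, recognizes ubiquitin, removes it, and threads the unfolded substrate into the core with a ring of ATPases. Dividing blood cells and leukemia cells make large amounts of the complex, and drugs that block its beta subunits are used against blood cancers. Production of the subunits is known to be matched to demand by the transcription factor NRF1, the product of Nfe2l1.

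The deposited values are FPKM, which divides the reads of a gene by its transcript length and the library size, so that levels of different genes can be set side by side. Steps between low FPKM values placed the libraries at 11500000 to 18890000 reads. At those totals 1 read on a transcript of 1000 bases is worth 0.0661 to 0.109 FPKM, well under the level of every tested member. RNA of other tissues was present and crossed the groups. The 11 colon epithelium markers summed to 4194, 4471 and 2004 FPKM for cytarabine 2, cytarabine 3 and control 1, but to 320.2, 23.6 and 25.2 FPKM in cytarabine 1, control 2 and control 3. The 8 heart markers were highest in control 1, at 2518 FPKM. The 8 neutrophil markers summed to 189 to 1433 FPKM with cytarabine and 1438 to 2043 FPKM in controls. Of the sorted-cell markers, Ptprc (CD45) was at 284 to 371 FPKM with cytarabine and 301 to 386 FPKM in controls. Itga2 (CD49b) was at 7.79 to 8.11 FPKM with cytarabine and 10.6 to 13.3 FPKM in controls. It was thus lower without overlap, as 12.9% of all genes tested were. The myeloid markers Cd33, Csf1r and Itgam were at no more than 5.81 FPKM. Some T cell genes were far above these myeloid markers. Across the libraries Cd3g ranged from 449 to 652 FPKM, Cd3e from 130 to 199 FPKM and Lck from 75.5 to 105 FPKM. Cd3d reached only 9.99 FPKM, and 5 of the 9 T cell markers, Cd4 and Cd8a among them, stayed below 1 FPKM throughout. Which cells carried the T cell transcripts was not tested. The myeloid granule gene Mpo set cytarabine 1 apart, at 71.1, 3.13 and 2.33 FPKM with cytarabine, against 7.83, 11 and 12.3 FPKM without it. In bulk RNA, fewer cells of a type and less RNA per cell cannot be told apart.

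Across the complex, cytarabine and control libraries differed little. The 46 members summed to 7741, 6977 and 6821 FPKM in cytarabine 1, 2 and 3 and to 6701, 7329 and 7243 FPKM in control 1, 2 and 3, so the groups overlapped. The median log2 fold change of the 44 tested members was 0.012, beside -0.0015 over all genes tested. Their median absolute log2 fold change was 0.067, beside 0.18 over all genes, and the range ran from -0.39 for Psmg4 to 0.35 for Psmc3ip. At an unadjusted p under 0.05 from limma, 3 members were higher (Psma1, Psmc1 and Psmc3ip) and 3 lower (Psmg2, Psmg3 and Psmg4), where 7.6% and 9.81% of all genes were. Together they were 13.6% of the tested members, against 17.4% of all genes. By limma, the adjusted p was under 0.05 for none of the 11703 genes, and 2038 had an unadjusted p under 0.05. Under the alternatives other than the sides of the colon division, between 0 and 5 genes passed the adjusted threshold. The smallest adjusted p among the members was 0.192 from limma, for Psmg2. The 95% interval of the difference lay within 0.5 of 0 on the log2 scale for 37 of the 44 members, beside 50.1% of all genes. The tested members were also more abundant, with a median level of 128 FPKM beside 14.1 FPKM over all genes tested. Their median standard error was 0.079, beside 0.12. The part of level in these smaller differences and narrower intervals was not tested. The groups did not overlap in 6 members, higher in Psma1, Psmc1 and Psmf1 and lower in Psmg2, Psmg3 and Psmg4, beside 23.8% of all genes.

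The count of called members depended on single libraries, as did that of all genes. Without cytarabine 1 it was 1 higher and 7 lower, in a fit that called 34.8% of all genes, and without control 3 it was 1 higher and 1 lower, in a fit that called 10.1%. Differences are also given within the 3 low-colon libraries (cytarabine 1 and control 2 and 3) and within the 3 high-colon ones (cytarabine 2 and 3 and control 1), as values with no test. With the colon score as a covariate, 6 members were higher and 1 lower, and 15% of all genes were called. Of the 6 called members Psma1, Psmc3ip and Psmg4 kept the call there, and the median moved to 0.11 while the median of all genes was -0.0024.

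**Figure D1:**
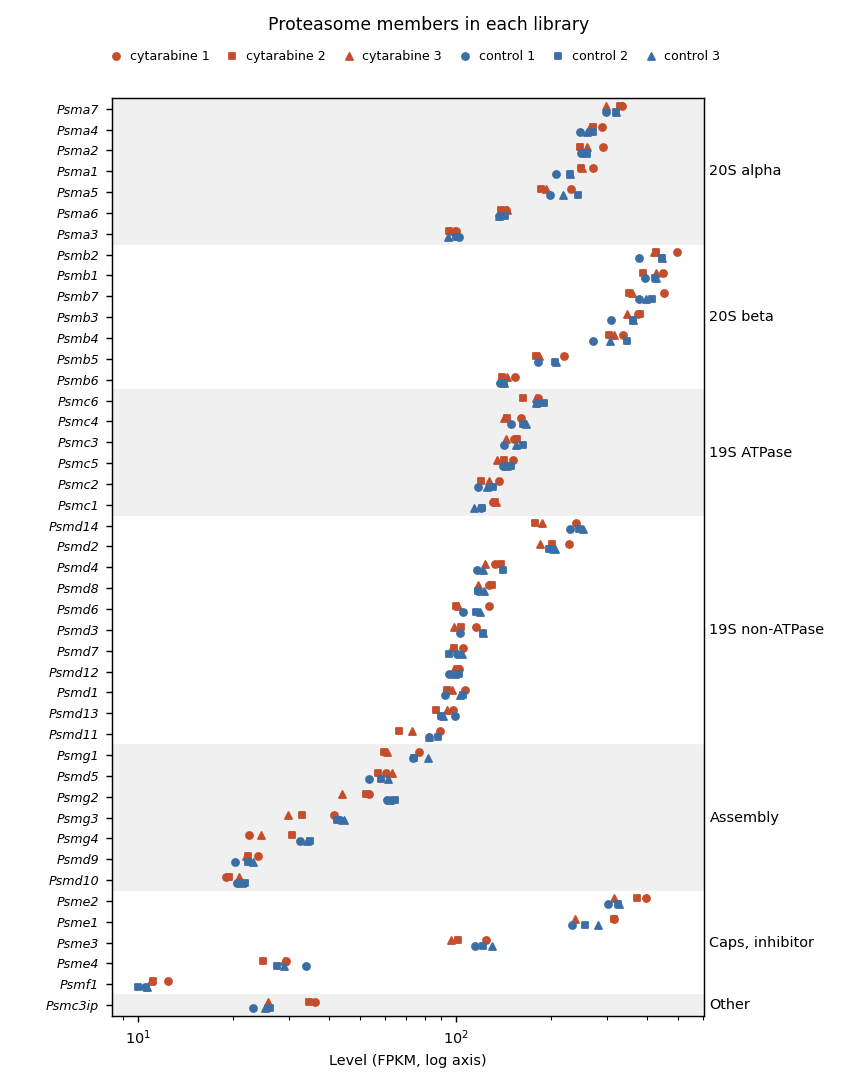
Level of each tested member in each library (horizontal axis, FPKM, logarithmic), with cytarabine libraries in red and control libraries in blue and a marker shape for each replicate number. Members are grouped by subcomplex and ordered by mean level, and the mean levels of the core subunits lie between 98.5 and 436 FPKM, above those of the assembly chaperones, which lie between 20.5 and 71.1 FPKM.

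The alpha ring is the outer ring of the core and carries the gate. Of its 8 genes 7 were tested, with mean levels from 98.5 FPKM for Psma3 to 316 FPKM for Psma7. Psma1 was called higher, none was called lower, and the median log2 fold change was 0.040. Psma1, on chromosome 7 from 114264606 to 114276118 (GRCm38), gave 271, 248 and 250.3 FPKM across cytarabine 1 to 3, against 208, 229 and 229 FPKM across control 1 to 3. The lowest cytarabine value exceeded the highest control value, at 256 ± 12.9 FPKM (SD, n = 3) with cytarabine against 222 ± 12.1 FPKM (SD, n = 3) in controls. Psma1 had a log2 fold change of 0.21 with a standard error of 0.068 (unadjusted p = 0.0222, adjusted p = 0.223 from limma), and groups that do not overlap upward were seen in 10.9% of all genes. Its log2 differences were 0.25 within the libraries with little colon transcript and 0.26 within those with much. Psma1 lost its call without cytarabine 1 (unadjusted p = 0.0503 from limma) and without control 1 (unadjusted p = 0.0647 from limma). Psma7, the most abundant alpha subunit, was at 334, 329.7 and 298 FPKM with cytarabine, against 298, 319.5 and 319.6 FPKM without it, a log2 fold change of 0.035 with a standard error of 0.068 (unadjusted p = 0.625, adjusted p = 0.782 from limma) with a 95% interval of -0.13 to 0.20. Psma3, the least abundant of those tested, was between 94.4 and 102 FPKM in all 6 libraries, with an interval of -0.16 to 0.12. The groups of both genes overlapped. Psma8, the alpha subunit of the testis, was not tested: it had no more than 0.106 FPKM in any library and was listed at 0 in 4 of the 6.

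The beta ring holds the cutting sites. Its 7 tested genes ran from 143 FPKM for Psmb6 to 436 FPKM for Psmb2, the highest mean of all members, and none was called in either direction. The median log2 fold change was 0.055, and the 95% intervals of all 7 lay within 0.5 of 0. Psmb5, Psmb6 and Psmb7 carry the chymotrypsin-like, caspase-like and trypsin-like activities of the constitutive core. Psmb5, the subunit that the drug bortezomib binds, was at 219, 179 and 183 FPKM with cytarabine, against 181, 205 and 207 FPKM without it, a log2 fold change of -0.035 with a standard error of 0.10 (unadjusted p = 0.740, adjusted p = 0.858 from limma) with an interval of -0.28 to 0.21. Psmb6 was at 154, 139.9 and 145 FPKM with cytarabine, against 138, 142 and 142 FPKM without it, with a log2 fold change of 0.056 and an interval of -0.084 to 0.20. Psmb7 was at 452, 351 and 358 FPKM with cytarabine, against 377, 414 and 396 FPKM without it, with a log2 fold change of -0.040 and an interval of -0.31 to 0.23. In all 3 genes the groups overlapped, and cytarabine 1 was the highest library. Psmb2 was at 496, 427 and 422 FPKM with cytarabine, against 378, 447 and 445 FPKM without it, with a log2 fold change of 0.083, and cytarabine 1 was again the highest. Psmb11, the beta subunit of the thymic cortex, was between 0.148 and 0.30 FPKM and was not tested.

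NRF1 binds elements with the core TGACNNNGC, and this core was looked for on both strands in the 250 bases before and 50 bases after each gene's start. RefSeq promoters on GRCm38.p6 were matched for 38 members, and 6 of them (15.8%) held the core, beside 14% of 27025 genes. The CCAAT box was held by 14 (36.8%), beside 41.1% of all genes. The members without a matched promoter were Psma8, Psmb1, Psmb2, Psmb7, Psmc3, Psmd3, Psmd7 and Psmg2. Members with the core are shown because NRF1 is the known regulator of this gene set, with the core in capitals and read 5′ to 3′ on the strand of the gene. In Psmc6, Psmd12 and Psme4 the core is on the opposite strand, so that the capitals show its reverse complement. Psmb5 lies at chr14:54618014-54618062 (minus strand), Psmb6 at chr11:70525328-70525376 (plus strand), Psmd9 at chr5:123228139-123228187 (plus strand), Psmc6 at chr14:45329577-45329625 (plus strand), Psmd12 at chr11:107479278-107479309 (plus strand) and Psme4 at chr11:30771748-30771796 (plus strand).
Psmb5: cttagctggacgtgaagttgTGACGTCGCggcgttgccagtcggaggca
Psmb6: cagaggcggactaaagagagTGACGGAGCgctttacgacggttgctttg
Psmd9: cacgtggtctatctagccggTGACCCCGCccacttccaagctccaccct
Psmc6: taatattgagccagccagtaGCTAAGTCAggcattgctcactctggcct
Psmd12: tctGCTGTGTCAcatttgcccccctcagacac
Psme4: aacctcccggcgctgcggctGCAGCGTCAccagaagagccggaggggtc
In the catalytic subunits the core starts 47 bases (Psmb5) and 9 bases (Psmb6) before the annotated start. None of these 6 genes was called in either direction.

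The 6 ATPases Psmc1 to Psmc6 form the ring that unfolds substrates. They were the most even subcomplex, with mean levels from 126 FPKM for Psmc1 to 179 FPKM for Psmc6, a ratio of 1.42. Psmc1 was called higher and none lower, and the median log2 fold change was -0.023. Psmc1, on chromosome 12 from 100110154 to 100123405, was at 131, 133 and 134 FPKM across cytarabine 1 to 3, against 120.2, 121 and 114 FPKM across control 1 to 3. All 3 cytarabine libraries were above all 3 control libraries, and the cytarabine libraries lay close together, at 133 ± 1.60 FPKM (SD, n = 3) with cytarabine against 119 ± 3.76 FPKM (SD, n = 3) in controls. Psmc1 had a log2 fold change of 0.16 with a standard error of 0.051 (unadjusted p = 0.0206, adjusted p = 0.218 from limma), and its differences within the low-colon and high-colon libraries were 0.15 and 0.15. It lost its call without cytarabine 2 (unadjusted p = 0.0506 from limma), without cytarabine 3 (unadjusted p = 0.0638 from limma) and without control 3 (unadjusted p = 0.0673 from limma). Psmc6 was at 182, 163 and 179 FPKM with cytarabine, against 181, 190.3 and 179 FPKM without it, with a log2 fold change of -0.070 and an interval of -0.23 to 0.089, and its groups overlapped.

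The 11 other subunits of the 19S particle hold it together and handle ubiquitin. None was called in either direction, the median log2 fold change was -0.010, and the mean levels ran from 80.3 FPKM for Psmd11 to 222 FPKM for Psmd14. Psmd14, the enzyme that strips ubiquitin from a substrate as it enters, was at 239, 178 and 187 FPKM across cytarabine 1 to 3, against 229.7, 245 and 252 FPKM across control 1 to 3. Cytarabine 2 and 3 were below every control library, while cytarabine 1 lay among the controls. The log2 fold change of -0.28 with a standard error of 0.12 (unadjusted p = 0.0649, adjusted p = 0.309 from limma) had the widest 95% interval of this subcomplex, -0.58 to 0.024. Its difference was -0.055 within the libraries with little colon transcript and -0.33 within those with much, and leaving out cytarabine 1 gave a log2 fold change of -0.41 (unadjusted p = 0.00169 from limma). Psmd11, a scaffold subunit, was at 89.2, 66.4 and 73.1 FPKM with cytarabine, against 82.6, 88 and 82.4 FPKM without it, with a log2 fold change of -0.15, and it too was lowest in cytarabine 2 and 3. Colon markers were highest in the same 2 libraries, and the summed neutrophil markers were lowest there, at 199 and 189 FPKM, while control 1, with much colon transcript too, had neutrophil markers at 1438 FPKM. The part of either in these values was not tested. The other 9 subunits, among them the ubiquitin receptor Psmd4 and the large scaffold Psmd2, had log2 fold changes from -0.12 to 0.064.

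**Figure D2:**
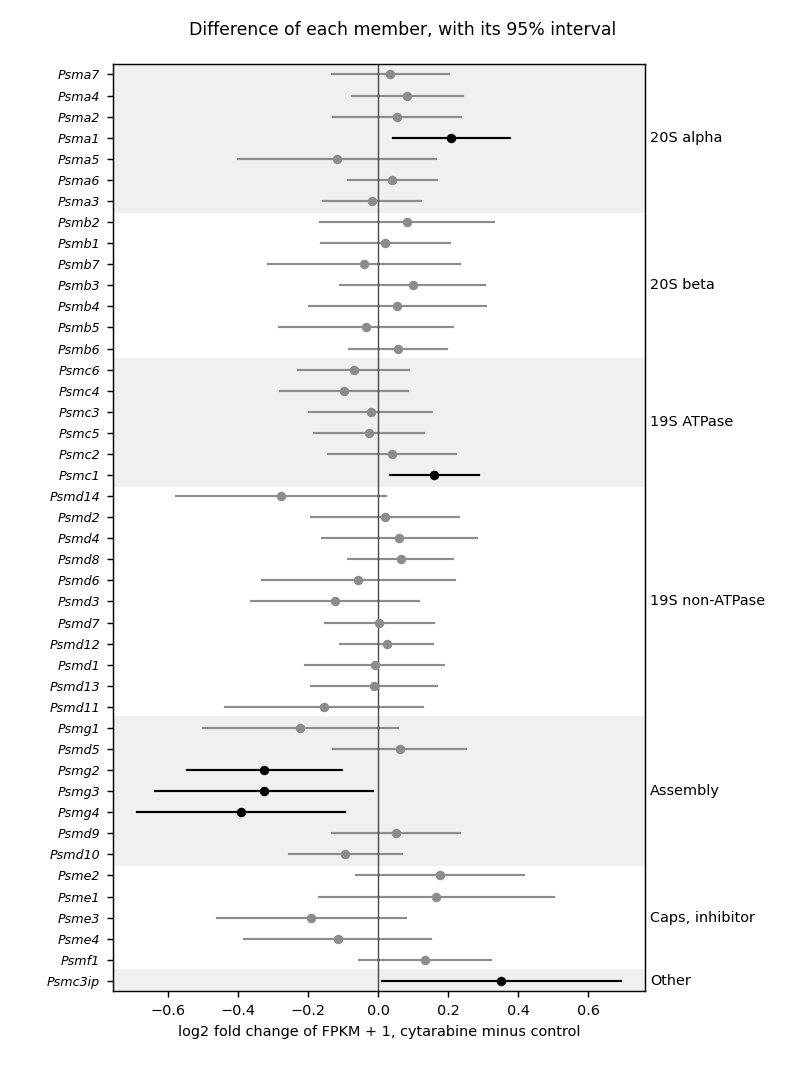
Log2 fold change of FPKM + 1 for each tested member, cytarabine minus control (horizontal axis), with the 95% interval from limma as a line. Members at an unadjusted p under 0.05 are black and the others grey, and the 3 lower ones, Psmg2, Psmg3 and Psmg4, are all assembly chaperones.

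The assembly chaperones were the subcomplex with the lower members. These proteins bind the growing particle and leave before it is finished, and 3 of the 7 were called lower, where 9.81% of all genes were, and none higher, with a median log2 fold change of -0.22, beside -0.0015 over all genes. Groups that do not overlap downward were found in 12.9% of all genes, and in Psmg2, Psmg3 and Psmg4 among the members. The products of Psmg1 and Psmg2 pair up, as do those of Psmg3 and Psmg4, and both pairs guide the alpha subunits into a ring. All 4 of these genes had a negative log2 fold change, from -0.39 to -0.22. They were set apart from the other chaperones after their values were seen, and no test was made of them as a group.

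Psmg2, on chromosome 18 from 67641599 to 67654162, was at 53.3, 52.4 and 43.8 FPKM across cytarabine 1 to 3, against 60.6, 64.6 and 62.1 FPKM across control 1 to 3. The highest cytarabine value was under the lowest control value, at 49.8 ± 5.26 FPKM (SD, n = 3) with cytarabine against 62.4 ± 2.01 FPKM (SD, n = 3) in controls. Psmg2 had a log2 fold change of -0.32 with a standard error of 0.090 (unadjusted p = 0.0120, adjusted p = 0.192 from limma), and its difference was -0.24 within the libraries with little colon transcript and -0.33 within those with much. It kept an unadjusted p under 0.05 in all 6 fits that left out 1 library, and was the only member to do so. With the colon score as a covariate it lost the call (log2 fold change -0.25, unadjusted p = 0.0634 from limma). Its partner Psmg1, on chromosome 16 from 95979933 to 95990960, was at 76.7, 59.6 and 61 FPKM across cytarabine 1 to 3, against 73.4, 74 and 82 FPKM across control 1 to 3. Cytarabine 2 and 3 were below the controls and cytarabine 1 was among them, a log2 fold change of -0.22 with a standard error of 0.11 (unadjusted p = 0.0999, adjusted p = 0.354 from limma). The difference of Psmg1 was -0.021 within the libraries with little colon transcript and -0.28 within those with much.

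Psmg4, on chromosome 13 from 34162964 to 34178173, was at 22.3, 30.5 and 24.4 FPKM across cytarabine 1 to 3, against 32.4, 34.9 and 34.1 FPKM across control 1 to 3. The groups did not overlap, and the lowest library was cytarabine 1, which had little colon transcript. Psmg4 had a log2 fold change of -0.39 with a standard error of 0.12 (unadjusted p = 0.0180, adjusted p = 0.210 from limma), and its difference was -0.61 within the libraries with little colon transcript and -0.24 within those with much. Its unadjusted p from limma was 0.0556 without cytarabine 3, 0.0592 without control 2 and 0.0537 without control 3. Its partner Psmg3, on chromosome 5 from 139823592 to 139826885, was at 41.6, 32.8 and 29.8 FPKM across cytarabine 1 to 3, against 43.2, 42.3 and 44.5 FPKM across control 1 to 3. Cytarabine 1 lay just under the lowest control, and cytarabine 2 and 3 lay further below. Psmg3 had a log2 fold change of -0.33 with a standard error of 0.13 (unadjusted p = 0.0427, adjusted p = 0.275 from limma), with differences of -0.060 and -0.46 within the low-colon and high-colon libraries. It kept its call only without cytarabine 1, and its unadjusted p in the other 5 fits that left out 1 library ran from 0.0842 to 0.115 (limma).

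Summed over Psmg1 to Psmg4, the level was 194, 175 and 159 FPKM in cytarabine 1, 2 and 3 and 209.7, 216 and 223 FPKM in control 1, 2 and 3. Divided by the sum of Psma1 to Psma7, the ring they build, it was 0.117, 0.116 and 0.105 with cytarabine and 0.146, 0.138 and 0.147 in controls. The groups did not overlap in this ratio, which was chosen after the values were seen and was not tested. The summed neutrophil markers were lower in cytarabine 2 and 3, but cytarabine 1, at 1433 FPKM, was barely under control 1, at 1438 FPKM. Their most abundant gene, S100a8, overlapped between the groups, at 638 FPKM in cytarabine 1 and 590 FPKM in control 1, and so did Camp. The remaining markers, S100a9, Ltf, Lcn2, Mmp8, Retnlg and Ngp, were lower with cytarabine, and their groups did not overlap. S100a9 reached 514 FPKM with cytarabine, against 552 FPKM or more in controls. The part of neutrophil RNA in these values was not tested. The chaperones of the 19S base, Psmd5, Psmd9 and Psmd10, differed less: their log2 fold changes were 0.061, 0.052 and -0.094. Psmd10, also called gankyrin and the least abundant chaperone, was at 19, 19.4 and 20.9 FPKM with cytarabine, against 20.5, 21.7 and 21.3 FPKM without it (unadjusted p = 0.203 from limma).

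The stretch of 80 bases before the start is shown for the 3 Psmg genes with a matched promoter, because these genes carry the lower values. Neither TGACNNNGC nor CCAAT was found in their promoters. Psmg1 lies at chr16:95990961-95991040 (minus strand), Psmg3 at chr5:139826895-139826974 (minus strand) and Psmg4 at chr13:34162884-34162963 (plus strand), all on GRCm38.p6.
Psmg1: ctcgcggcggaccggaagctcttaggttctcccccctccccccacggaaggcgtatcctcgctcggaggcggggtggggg
Psmg3: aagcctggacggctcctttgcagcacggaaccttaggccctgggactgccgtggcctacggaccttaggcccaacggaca
Psmg4: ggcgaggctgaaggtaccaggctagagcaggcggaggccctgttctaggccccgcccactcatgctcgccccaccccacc

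**Figure D3:**
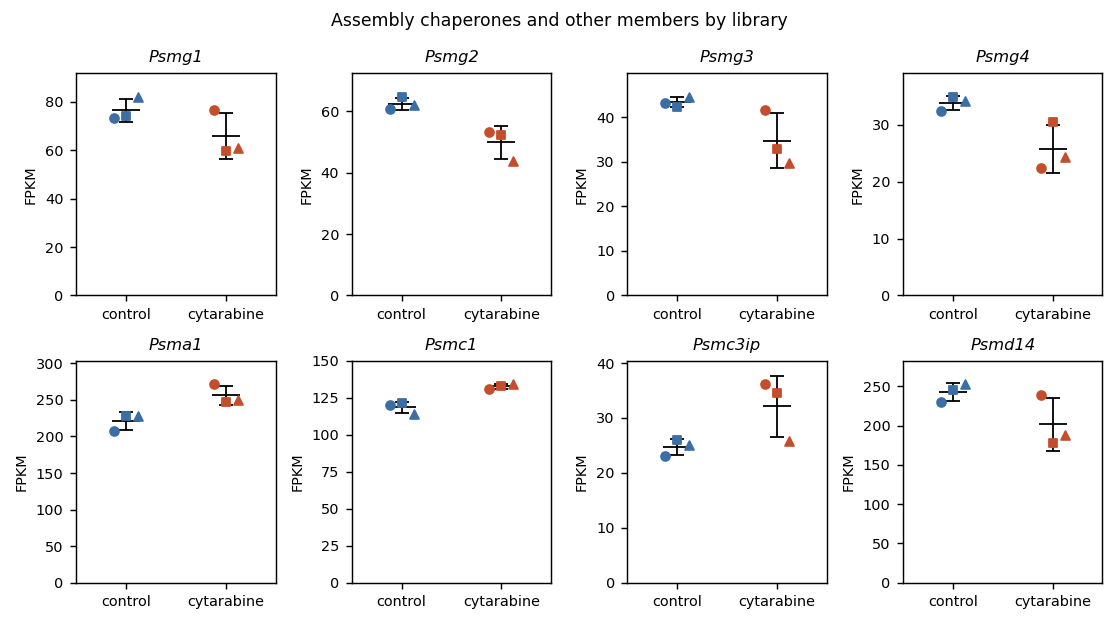
FPKM (vertical axis, from 0) of the Psmg chaperones and of Psma1, Psmc1, Psmc3ip and Psmd14 in each control (blue) and cytarabine (red) library, with a circle, square and triangle for replicate 1, 2 and 3 and bars for the mean and SD of 3 mice. In Psmg2, Psmg3 and Psmg4 all cytarabine libraries lie below all controls, in Psma1 and Psmc1 above, and in Psmg1 and Psmd14 cytarabine 1 lies among the controls.

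The caps that can take the place of the 19S particle were measured through 5 genes with the inhibitor, and none was called. Psme1 and Psme2 encode the partner subunits of the interferon-inducible cap PA28 and both lie on chromosome 14, from 55578123 to 55581529 and from 55587441 to 55591113. Psme2 was at 397, 371 and 316 FPKM across cytarabine 1 to 3, against 303, 324 and 328 FPKM across control 1 to 3, a log2 fold change of 0.18 with a standard error of 0.097 (unadjusted p = 0.119, adjusted p = 0.372 from limma) with an interval of -0.062 to 0.42. Cytarabine 1 and 2 were above all controls, and cytarabine 3 was among them. Psme1 was at 315, 314 and 238 FPKM with cytarabine, against 232, 255 and 280.0 FPKM without it, with a log2 fold change of 0.17 (unadjusted p = 0.267 from limma) and the same 2 libraries on top. Psme3, the nuclear cap that is not tied to interferon, was at 124, 102 and 97 FPKM with cytarabine, against 115, 122 and 130.5 FPKM without it, with a log2 fold change of -0.19 (unadjusted p = 0.135 from limma). The sum of Psme1 and Psme2 over Psme3 was 5.72, 6.73 and 5.70 with cytarabine and 4.66, 4.73 and 4.66 in controls, a ratio chosen after the values were seen and not tested. Psme4, a cap linked to histone degradation, was at 29.4, 24.8 and 28.9 FPKM with cytarabine, against 34, 27.5 and 28.9 FPKM without it, with an interval of -0.38 to 0.15. Psmf1, the inhibitor PI31, was the least abundant tested member, at 12.5, 11.2 and 11 FPKM with cytarabine, against 10.5, 10.1 and 10.7 FPKM without it. Its groups did not overlap, but its log2 fold change was 0.13 with an unadjusted p of 0.130 from limma. Psme2b, a copy of Psme2 with 99.4% identity over 794 bases, is annotated but not listed in the files, so the value of Psme2 may include its reads.

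One match to the rule is no proteasome gene. Psmc3ip, a partner of the strand-exchange machinery in meiotic recombination, carries the name of Psmc3 because their products bind. It lies on chromosome 11 from 101091823 to 101095436 and was at 36.1, 34.5 and 25.8 FPKM across cytarabine 1 to 3, against 23.1, 26 and 25.1 FPKM across control 1 to 3. Cytarabine 1 and 2 were above all controls, and cytarabine 3 was among them. Psmc3ip had a log2 fold change of 0.35 with a standard error of 0.14 (unadjusted p = 0.0450, adjusted p = 0.278 from limma), and among the 6 fits that left out 1 library it was called only without cytarabine 3 (log2 fold change 0.50, unadjusted p = 0.00203 from limma). It shares 385 exonic bases with Mlx on the other strand, and whether Cufflinks used strand was not stated. Without it, the members called higher were Psma1 and Psmc1.

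The libraries themselves ordered the members. Of the 44 tested members, 35 were highest in cytarabine 1 among the cytarabine libraries, where 48.5% of all genes were. Among the controls, 34 members were lowest in control 1, beside 43.7% of all genes. For the core this gave sums of 4141, 3686 and 3704 FPKM in cytarabine 1, 2 and 3 and 3484, 3907 and 3801 FPKM in control 1, 2 and 3. The 19S particle gave 2388, 2160.0 and 2135 FPKM against 2196, 2339 and 2309.7 FPKM. Within each group the library or libraries with the most colon transcript had the smaller sums. The same libraries had the most smooth muscle transcript. Its 8 markers summed to 1026, 1189 and 964 FPKM in cytarabine 2, cytarabine 3 and control 1, against 124, 168 and 24.7 FPKM in cytarabine 1, control 2 and control 3. Heart markers were also highest in control 1. The part of RNA from any of these tissues in the sums was not tested.

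The inducible subunits that the rule leaves out take the places of the catalytic ones under interferon. Psmb8 was at 319, 243 and 220.2 FPKM across cytarabine 1 to 3, against 162, 182 and 211 FPKM across control 1 to 3, a log2 fold change of 0.48 with a standard error of 0.17 (unadjusted p = 0.0278, adjusted p = 0.236 from limma). Psmb9 was at 88.2, 74 and 63.7 FPKM with cytarabine, against 55.2, 62.9 and 54.9 FPKM without it, with a log2 fold change of 0.37 (unadjusted p = 0.0313 from limma), and Psmb10 was at 111, 84.5 and 62.4 FPKM with cytarabine, against 65.6, 64.2 and 76.1 FPKM without it, with 0.28 (unadjusted p = 0.225 from limma). Set over the constitutive subunit of the same site, the ratio Psmb8 to Psmb5 was 1.46, 1.36 and 1.21 with cytarabine and 0.894, 0.887 and 1.02 in controls, without overlap. For Psmb9 over Psmb6 the means were 0.514 ± 0.0689 (SD, n = 3) and 0.41 ± 0.0288 (SD, n = 3), and for Psmb10 over Psmb7 they were 0.22 ± 0.0398 (SD, n = 3) and 0.174 ± 0.0185 (SD, n = 3), with overlap in both. These ratios were not tested. The 7 NK cell markers also summed higher without overlap, to 125 to 156 FPKM with cytarabine, highest in cytarabine 1, and 90.5 to 98.3 FPKM in controls. Most of each sum was 1 gene, Klrd1, at 139, 115 and 117 FPKM with cytarabine and 94.5, 89.5 and 86.6 FPKM in controls. Ncr1, Eomes and Tbx21 were under 1 FPKM in every library. The part of NK cell RNA in these values was not tested.

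**Figure D4:**
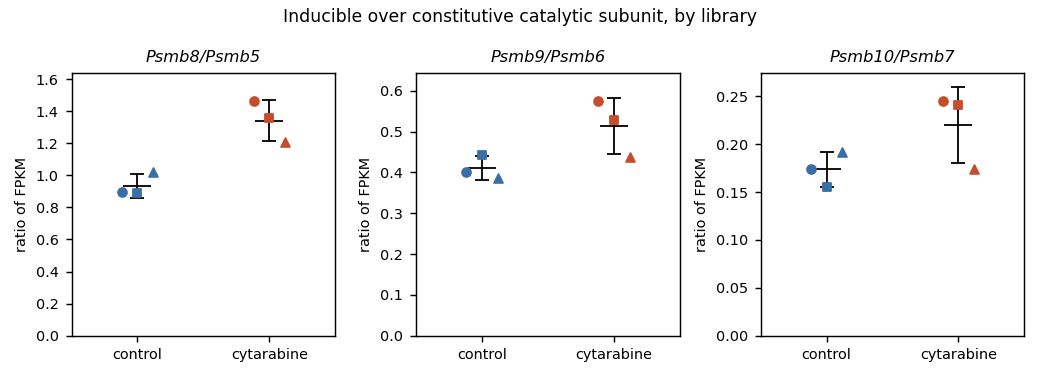
Ratio of the FPKM of each inducible catalytic subunit to that of the constitutive subunit of the same site (vertical axis, from 0) in each control (blue) and cytarabine (red) library, with a circle, square and triangle for replicate 1, 2 and 3 and bars for the mean and SD of 3 mice. The groups do not overlap for Psmb8 over Psmb5, and overlap for the other pairs.

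Of 11 further proteasome genes without a Psm symbol, none was called higher and 1 lower, which is 9.09% against 17.4% of all genes, with a median log2 fold change of -0.066. The lower one was Akirin2, which carries proteasomes into the nucleus, at 37.6, 34.2 and 34 FPKM with cytarabine, against 40.5, 40.2 and 39.8 FPKM without it (log2 fold change -0.18, unadjusted p = 0.0264 from limma). Pomp, the chaperone of the core that works after the Psmg proteins, was at 199, 184 and 184 FPKM with cytarabine, against 175, 193 and 172 FPKM without it, with a log2 fold change of 0.071 and an interval of -0.098 to 0.24. The intervals of all 11 genes lay within 0.5 of 0. Shfm1, a small subunit of the 19S lid, had a log2 fold change of 0.18 (unadjusted p = 0.0803), Zfand5, which activates the 26S particle, 0.0079 (unadjusted p = 0.950), Txnl1, a thioredoxin bound to the 19S particle, -0.17 (unadjusted p = 0.123), and the ubiquitin ligase Ube3c -0.12 (unadjusted p = 0.210), all from limma.

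Of the 14 tested genes listed for NRF1 and its control, 2 were called higher and 2 lower, which is 28.6% against 17.4% of all genes. Their median log2 fold change was -0.054. The list also holds Nfe2l2, the gene of the separate factor NRF2, and Keap1. Nfe2l1 itself was at 27.9, 31.2 and 31 FPKM across cytarabine 1 to 3, against 44.5, 33.2 and 33.6 FPKM across control 1 to 3. All cytarabine libraries were below all controls, with control 1 well above the rest, and the log2 fold change of -0.28 with a standard error of 0.13 (unadjusted p = 0.0699, adjusted p = 0.316 from limma) was not called. Its small Maf partners differed in sign. Mafg was at 14, 13.9 and 13.8 FPKM with cytarabine, against 17.7, 17.9 and 18.9 FPKM without it, a log2 fold change of -0.37 with a standard error of 0.061 (unadjusted p = 0.00106, adjusted p = 0.136 from limma), and Mafk was at 21.1, 20.3 and 22 FPKM with cytarabine, against 16, 18.6 and 16.7 FPKM without it, a log2 fold change of 0.29 with a standard error of 0.078 (unadjusted p = 0.00979, adjusted p = 0.183 from limma). Sel1l, of the machinery that exports NRF1 and misfolded proteins from the endoplasmic reticulum, was at 17.2, 16.5 and 16.5 FPKM with cytarabine, against 21.1, 21 and 21.5 FPKM without it, a log2 fold change of -0.33 with a standard error of 0.057 (unadjusted p = 0.00137, adjusted p = 0.136 from limma). Of the 14 genes, the groups did not overlap in 2 upward (Mafk and Ogt), beside 10.9% of all genes. They did not overlap in 4 downward (Nfe2l1, Mafg, Sel1l and Btrc), beside 12.9%. Ogt, which modifies proteins with sugar, had a log2 fold change of 0.35 (unadjusted p = 0.0258) and Ngly1, which removes sugars from NRF1, of 0.50 (unadjusted p = 0.104), from limma.

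Of the 6 genes for ubiquitin and its activating enzymes, none was called. The largest difference was in Ubb, a polyubiquitin gene, at 319, 384 and 366 FPKM with cytarabine, against 406, 404 and 395 FPKM without it, with a log2 fold change of -0.18 (unadjusted p = 0.0723) from limma and no overlap of the groups. Uba1, the main activating enzyme, had -0.098 (unadjusted p = 0.177), and Rps27a, which encodes ubiquitin fused to a ribosomal protein, had -0.044 (unadjusted p = 0.594), both from limma. Among 15 genes that unfold or carry ubiquitinated proteins, 1 was called higher and 4 lower, which is 33.3% against 17.4% of all genes, with a median log2 fold change of -0.11. The lower ones were the p97 cofactors Faf1 and Nsfl1c and the shuttle factors Ubqln4 and Ubqln2. Faf1 was at 24.6, 21.1 and 21.3 FPKM with cytarabine, against 28.4, 27.8 and 28.1 FPKM without it, a log2 fold change of -0.32 with a standard error of 0.077 (unadjusted p = 0.00620, adjusted p = 0.166 from limma), and Ubqln4 was at 27.2, 23.9 and 23.7 FPKM with cytarabine, against 29.7, 31.6 and 30.7 FPKM without it, a log2 fold change of -0.29 with a standard error of 0.076 (unadjusted p = 0.00845, adjusted p = 0.178 from limma). Ubqln2 was at 23, 21.1 and 19.1 FPKM with cytarabine, against 23.4, 25.1 and 26.8 FPKM without it, with a log2 fold change of -0.24 (unadjusted p = 0.0389) from limma. The one called higher was Sqstm1, the autophagy receptor p62, at 82.6, 106 and 109 FPKM with cytarabine, against 71.8, 81.6 and 70.3 FPKM without it, a log2 fold change of 0.40 with a standard error of 0.13 (unadjusted p = 0.0200, adjusted p = 0.216 from limma). The p97 cofactors Nploc4 and Ufd1l had log2 fold changes of 0.13 (unadjusted p = 0.253) and 0.089 (unadjusted p = 0.360) from limma, and Vcp, which is p97 itself, was not called, with an interval of -0.31 to 0.11.

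Shared sequence limits some values. Near-identical copies, mostly processed pseudogenes with at least 95% identity over 200 bases, were annotated for 10 members: Psma3, Psma4, Psma5, Psmb3, Psmb5, Psmb6, Psmc1, Psmd2, Psmd11 and Psme2. How reads were divided among them was not stated, and of the called members only Psmc1 has such a copy. More than 100 exonic bases lie on a gene of the opposite strand in Psma4, Psmb7, Psmc3, Psmc3ip, Psmd1, Psmd9 and Psmd13, of which Psmc3ip was called. Psmg3 shares 280 exonic bases with Gm26938, a model on the same strand.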

How the data were processed

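RNA was measured in 6 libraries, 3 per group. According to the methods and the submitters' processing notes, 75-base single-end reads from a stranded kit were mapped to mm10 with TopHat2 2.0.13, Bowtie2 2.2.3 and SAMtools 0.1.19, and the authors deposited the FPKM that Cufflinks 2.2.1 gave for each gene. The gene annotation, the Cufflinks options and whether strand was used are not given in the sources used here.

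Genes that averaged 1 FPKM or more were tested on log2(FPKM + 1) by limma 3.58.1 in R 4.3.3 (eBayes with trend, a two-sided test). Adjusted p-values follow Benjamini and Hochberg and cover all genes tested. A fold change on this scale understates the change of low genes. p-values set a difference against the spread between 3 mice per group, which limma moderates toward a trend across all genes tested. That spread includes differences between libraries in RNA of other tissues. This step was first tested on simulated data. Depth was inferred from the steps of low FPKM in 3456 genes with 1 transcript in GENCODE M21 (GRCm38, the assembly of mm10), assuming fragments of 200 bases, and intervals cover only what limma models. Gene positions come from that annotation and promoters from RefSeq (GRCm38.p6). Copies were searched with blastn 2.17.0, and figures drawn with matplotlib 3.10.9 in Python 3.11.15.

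Members and lists were chosen with earlier results of these data known. Genes named are the members at an unadjusted p under 0.05, the catalytic subunits, caps and inhibitor, the highest and lowest member of each subcomplex, members under the filter, up to 3 genes per direction of each pathway list, and Nfe2l1. Psmd5, Psmd9, Nsfl1c, Vcp, Psmd2 and Psmd4 were added after values were seen. Alternatives were another pseudocount, other filters, scalings and eBayes settings, the replicate block, a colon covariate, the sides of the colon division, and leaving out each library. Count tests were not run, because the values are FPKM.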

Additional observations from a re-analysis of the deposited data

How the results depend on the processing

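At an unadjusted p under 0.05, 3 members were higher and 3 lower. With median-of-ratios factors 5 were higher, and with the colon score as covariate 6 were higher and 1 lower. The sides of the colon division were not used for counts of called members, because each leaves 1 library in a group. At a threshold of 0.05 on the adjusted p, 0 were higher and 0 lower under limma, where 6 had an unadjusted p under 0.05. When one library was left out in turn, the higher count ranged from 1 to 4 and the lower from 1 to 7. With the replicate number as a block 0 were higher and 2 lower (Psmg2 and Psmg4), and 994 of all genes were called against 2038 without it. Same-numbered libraries are different mice, and their deviations from the group means correlated at -0.71, -0.25 and -0.59. Colon transcript, which was high under opposite numbers in the groups, enters these correlations. They therefore cannot show whether same-numbered libraries shared handling.

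The median log2 fold change of the members was 0.012, moved to 0.11 with the colon covariate and ranged from -0.030 to 0.029 when one library was left out. All 4 Psmg genes kept a negative log2 fold change under every alternative run, though some values were small. Psmg1 had -0.078 with the colon covariate and -0.021 within the libraries with little colon transcript, where Psmg3 had -0.060. The alternatives reuse the same libraries, and these genes were set apart after their values were seen. Some small values changed sign. Psma3 had 0.0036 with FPKM rescaled to an equal sum and 0.016 with median-of-ratios factors. With quantile normalization Psmb5 had 0.0054, Psma7 -0.042 and Zfand5 -0.018, and with the colon covariate Psmb5 had 0.13 and Psmb7 0.11. Leaving out one library gave from -0.13 to 0.017 for Psmb5, from -0.16 to 0.026 for Psmb7, from -0.050 to 0.0080 for Psma3 and from -0.088 to 0.10 for Zfand5. Of the 846 alternative values of named genes, 711 kept direction and side of the threshold or moved by less than the spread between libraries. A further 60 lost the call, 20 gained one, 39 moved by more than that spread and 16 were counted as sign changes. The 16 do not cover every sign change on the sides of the colon division. Among the low-colon libraries Psma3, Psmb5, Psmb7, Psmd11 and Psme4 had differences of 0.038, 0.084, 0.16, 0.066 and 0.056. All of these genes had a negative log2 fold change over the 6 libraries. The cause was not tested. For 7 of the 44 members the 95% interval reached past 0.5.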
